A study of Mus musculus with 8 samples.

Results

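Transcription in cells supplied with wild-type CTCF after auxin was compared with that in untreated control cells, in 4 of the 8 libraries of a transient transcriptome sequencing (TT-seq) study. All cells were E14 mouse embryonic stem cells (mESCs) of the genotype CTCF AID, in which the CTCF protein carries an auxin-inducible degron. The 2 libraries of one side came from the overexpressed control line without the auxin IAA (the untreated control). The 2 libraries of the other side came from the line overexpressing wild-type CTCF after 12 h of IAA. These labels, and no value of a library, put each library in its group. The other 4 libraries, 2 of the control line with 12 h of IAA and 2 of a line overexpressing a mutated CTCF with 12 h of IAA, are given beside them. What the mutation is, how strongly each line expresses its CTCF and whether a line is 1 clone are not given in the sources used here.

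CTCF is a zinc finger protein that binds DNA and stops cohesin as it extrudes chromatin loops, so that it anchors loop ends and the borders of topological domains. In a degron line, IAA makes the ubiquitin ligase adaptor TIR1 bind the tag, and the tagged protein is destroyed, while a CTCF supplied without the tag is spared. In TT-seq, cells take up 4-thiouridine for a short pulse and only RNA made in that time is captured, so that a value reflects synthesis more than the standing pool of RNA. The pulse here was 15 min at 400 µM. All cells were grown without feeders in medium with leukemia inhibitory factor, the MEK inhibitor PD0325901 and the GSK3 inhibitor CHIR99021, which hold mESCs in the naive state. The comparison asks how far transcription with supplied wild-type CTCF lies from the untreated level. The sides differ in the line and in IAA at once, and these cannot be told apart in it.

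The untreated libraries held 21372946 and 21335071 reads and the wild-type CTCF libraries 21561141 and 18258598, recovered from the deposited normalized values. Replicates of a group correlated at 0.995 to 0.996 (Pearson's r across genes), libraries of different groups at 0.983 to 0.990. By chi-square per degree of freedom on recovered reads the wild-type CTCF pair differed more (3.07) than the untreated pair (1.30) and the control pair with IAA (1.38), which was not computed for the mutated CTCF pair. The second library of each group lay higher by a median of 0.026 to 0.050 on the log2 scale, 0.050 being the wild-type CTCF pair. The labels do not say that replicates came from separate cultures, so p-values measure only the spread between these libraries. All 11 mESC markers were listed, with summed levels of 53468 and 54527 normalized reads untreated and 61584 and 65864 with wild-type CTCF. Of 7 fibroblast markers 0 were listed, and of the primitive endoderm markers 3 of 5, summing to 179 and 205 reads untreated and 174 and 197 with wild-type CTCF. For 4 other cell types only some markers were listed, and the summed levels of these were higher with wild-type CTCF. For mesoderm 2 of 4 were listed (93.1 and 104 against 173 and 177, almost all from Kdr), and for trophoblast 2 of 5 (10.3 and 13.4 against 20.1 and 27.8). For neural cells 1 of 4 was listed (5.02 and 9.48 against 11.8 and 19.2), and for 2-cell-like cells 1 of 4 (4.18 and 6.90 against 11.8 and 15.7). In these bulk libraries fewer cells of a type and less RNA per cell cannot be told apart, and the part of such cells in the results below was not tested.

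With wild-type CTCF supplied, 6827 of 15817 tested genes (43.2%) differed from the untreated level at an adjusted p under 0.05 by limma, 4366 of them higher (27.6% of tested genes) and 2461 lower (15.6%). Most departures were under 1 in size on the log2 scale. The median standard error per gene was 0.10. The signed median log2 fold change over all tested genes was 0.05, and -0.0003 after median-of-ratios rescaling. It runs over genes that went both ways, so it does not measure the size of departures. A log2 fold change of at least 1 in size was reached by 370 genes above the untreated level (2.34%) and 240 below it (1.52%). The split by direction depended on the scale. Among genes past the threshold, 64.0% were higher on the authors' scale, 51.8% after median-of-ratios rescaling, 45.6% after rescaling to equal totals, 50.8% with edgeR and 52.7% with DESeq2 on recovered reads. Without the second untreated library 1467 genes were lower. From the same fit, 5966 genes differed from the untreated level in the control line with IAA and 5974 with mutated CTCF, comparisons that share the untreated libraries with this one.

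The 12 genes highest above the untreated level included enzymes, receptors and signalling proteins. Genes were named by size only where the untreated and wild-type CTCF libraries did not overlap, so the separation of these groups is set by the choice. Values of the control line with IAA share the untreated libraries with it and are given side by side. The largest change was in Cyp1a1 (chr9:57687928-57703824, plus strand, GRCm38), a cytochrome P450 that oxidises aromatic hydrocarbons and is the best known target of the aryl hydrocarbon receptor (AhR). Cyp1a1 had 9.19 and 9.48 normalized reads in the untreated libraries and 292 and 313 with wild-type CTCF. The groups were far apart, a 32.4-fold difference in means; on the log2 scale the change was 4.88 (SE 0.18, adjusted p = 2.1e-23). Cyp1a1 stood at 161 and 144 in the control line with IAA, below the wild-type CTCF line (log2 fold change of wild-type CTCF over control with IAA 0.99, adjusted p = 5.8e-05), and at 29.3 and 31.6 with mutated CTCF.

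Ahrr (chr13:74211118-74292331, minus strand), the repressor that AhR induces against itself, had 38.4 and 47.4 normalized reads untreated and 268 and 280 with wild-type CTCF (log2 fold change 2.66, SE 0.14, adjusted p = 3.3e-18). It had 192 and 209 in the control line with IAA and 64.8 and 73.2 with mutated CTCF, so both of its wild-type libraries lay above every other library. Cyp1b1, another P450 of the AhR pathway, was under the level minimum for naming and is named after its values were seen: 0.84 and 3.45 normalized reads untreated against 42.0 and 38.5 with wild-type CTCF (log2 fold change 3.85, adjusted p = 5.0e-09), with 15.5 and 23.1 in the control line with IAA and 4.18 and 1.98 with mutated CTCF. AhR with its partner ARNT binds DNA elements whose core is GCGTG. The promoter windows of the 2 AhR genes among the 12 are shown because they rose together, from 250 bases before to 50 bases after the RefSeq start, 5′ to 3′ on the gene's strand, with the core in capitals. The Cyp1a1 window is chr9:57697363-57697662 and the Ahrr window chr13:74292282-74292581 (RefSeq, GRCm38.p6).
Cyp1a1: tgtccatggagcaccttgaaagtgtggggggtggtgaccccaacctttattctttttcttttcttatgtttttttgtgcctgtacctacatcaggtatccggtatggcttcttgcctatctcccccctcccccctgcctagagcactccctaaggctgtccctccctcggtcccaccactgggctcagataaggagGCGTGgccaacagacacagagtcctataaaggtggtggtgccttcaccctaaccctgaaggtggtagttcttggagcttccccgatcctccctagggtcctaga
Ahrr: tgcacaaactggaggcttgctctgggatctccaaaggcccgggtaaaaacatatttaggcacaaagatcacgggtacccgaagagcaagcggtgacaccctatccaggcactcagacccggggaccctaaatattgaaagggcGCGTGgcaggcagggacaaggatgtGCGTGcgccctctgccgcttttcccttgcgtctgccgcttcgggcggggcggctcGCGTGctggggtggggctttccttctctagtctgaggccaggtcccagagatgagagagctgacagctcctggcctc
The core occurs 1 time in the Cyp1a1 window and 3 times in the Ahrr window, counted on both strands. Of 32851 RefSeq windows of this length 32.4% hold it at least 1 time and 3.91% hold it 3 or more times, and for windows of tested genes the shares are 48.5% and 7.06%. In the 11 windows matched to the list of AhR targets and partners they are 54.5% and 9.09%, near those of tested genes. A match of these letters is a description and not a measured binding site.

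Other genes among the highest belong to cyclic AMP, TGF-β, ephrin and retinoid signalling. Pde4b, which breaks down cyclic AMP, had 62.7 and 51.7 normalized reads untreated and 784 and 801 with wild-type CTCF, a 13.9-fold difference (log2 fold change 3.78, SE 0.10, adjusted p = 1.0e-28). Its control libraries with IAA, at 762 and 705, lay next to the wild-type CTCF libraries (log2 fold change 0.11 between the groups, adjusted p = 0.41), while mutated CTCF gave 193 and 220. Aox3, an aldehyde oxidase, followed the same order, with 45.1 and 39.7 untreated, 253 and 246 with wild-type CTCF, 239 and 252 in the control with IAA and 109 and 114 with mutated CTCF. In both genes the mutated CTCF libraries therefore lay between the untreated and the wild-type ones.

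Tgfbr3, the TGF-β co-receptor betaglycan, had 583 normalized reads in each untreated library and 2541 and 2596 with wild-type CTCF (log2 fold change 2.14, SE 0.05), with 3012 and 3088 in the control with IAA. Ephb1, an ephrin receptor, had 257 and 267 untreated against 981 and 1036 (log2 fold change 1.94). Aldh1a2, which makes retinoic acid, had 24.2 and 21.6 against 79.6 and 78.1 (log2 fold change 1.74, SE 0.21). Mobp, a myelin protein gene, had 174 and 183 untreated, 795 and 757 with wild-type CTCF and 308 and 293 with mutated CTCF. Gm38642 lies over Mobp on the same strand, so their reads may be shared. Phactr1, an actin and phosphatase regulator, and Ifitm1, an interferon-induced membrane protein, changed by 2.01 and 1.93 on the log2 scale.

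**Figure D1:**
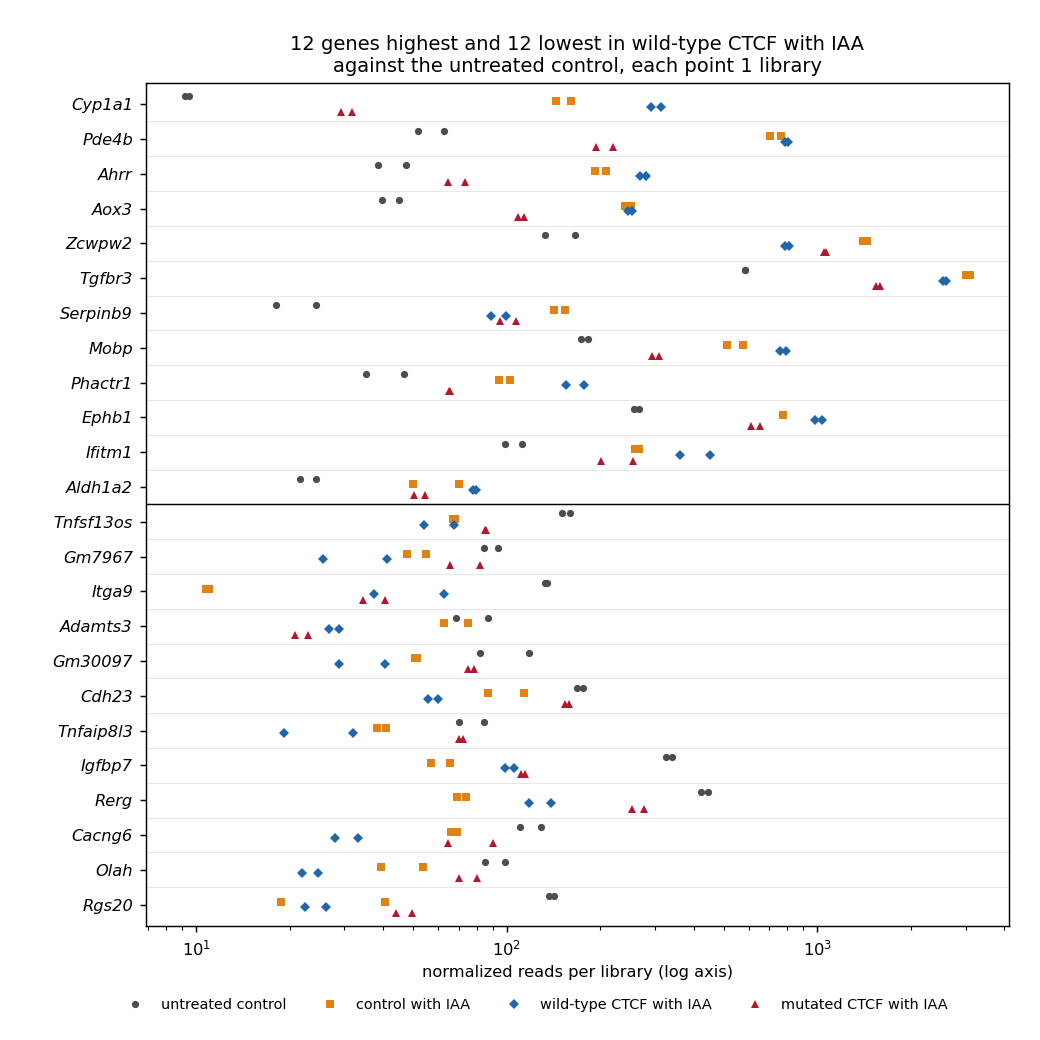
Normalized reads per library (x axis, log scale) for the 12 genes highest above the untreated level with wild-type CTCF (above the line) and the 12 lowest (below it), 2 libraries a group. Every wild-type CTCF point lies outside the untreated pair by the rule of choice, while the mutated CTCF points take different places, near the untreated pair in Cdh23 and near the wild-type pair in Serpinb9.

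The 12 genes furthest below the untreated level included regulators of G protein, Ras and growth factor signalling and 3 transcripts that are not protein-coding. Rgs20 (chr1:4909576-5070285), which switches off G proteins, had 137 and 141 normalized reads untreated and 26.2 and 22.5 with wild-type CTCF, 5.72-fold lower (log2 fold change -2.47, SE 0.24, adjusted p = 6.0e-11). It overlaps Atp6v1h on the opposite strand. Rerg, a Ras-like growth inhibitor, had 421 and 445 untreated, 139 and 118 with wild-type CTCF, 73.9 and 69.3 in the control with IAA and 254 and 276 with mutated CTCF (wild-type CTCF over untreated, log2 fold change -1.75, adjusted p = 1.4e-15). Igfbp7, a secreted binder of insulin-like growth factors that overlaps Polr2b on the opposite strand, had 326 and 341 untreated against 106 and 98.4 (log2 fold change -1.70).

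Olah, a fatty acid thioesterase, Cacng6, a calcium channel subunit, Tnfaip8l3, a lipid transfer protein, and Cdh23, a cadherin of hair cell tip links, had their lowest levels with wild-type CTCF. Cdh23 had 176 and 168 normalized reads untreated, 56.0 and 59.9 with wild-type CTCF, 87.0 and 113 in the control with IAA and 159 and 154 with mutated CTCF. Its mutated CTCF libraries lay above its wild-type ones by 1.42 on the log2 scale (SE 0.15, adjusted p = 3.1e-10), and differed from the untreated level by -0.13 (adjusted p = 0.51). Olah had 98.6 and 85.3 untreated, 21.9 and 24.6 with wild-type CTCF and 70.0 and 80.1 with mutated CTCF. Adamts3, a procollagen-processing protease, took another order: 68.5 and 87.1 untreated and 68.9 ± 8.7 (SD, n = 2) in the control with IAA (log2 fold change -0.17, adjusted p = 0.59), against 28.9 and 26.7 with wild-type and 23.0 and 20.8 with the mutated form. Its untreated libraries and those of the control with IAA overlapped, and both lines with supplied CTCF lay below them.

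The transcripts Gm30097 and Gm7967 (lincRNA) and Tnfsf13os (antisense) fell by 1.49, 1.43 and 1.35 on the log2 scale. Gm30097 overlaps Fgg on the opposite strand, and Tnfsf13os is annotated antisense to a coding gene. The libraries were strand-specific, but the strand setting of the counting is not given in the sources used here. Reads of Gm30097 therefore cannot be told apart from those of Fgg. Tnfsf13os and Gm7967 overlapped 0 of the listed genes. Notum, Col4a1, Aldoa, Rpl10a, Rpl23a, Bnip3, Tmem67, Tiparp and Rarb, named below, also overlap a listed gene on the opposite strand.

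Several genes stood between the untreated level and the level of the control line with IAA. Cc2d2a, a protein of the ciliary transition zone, had 381 and 391 normalized reads untreated, 16.7 and 25.3 in the control with IAA, 219 and 236 with wild-type CTCF and 135 and 147 with mutated CTCF. Wild-type CTCF lay above the control with IAA by 3.40 on the log2 scale (adjusted p = 6.1e-21) and below the untreated level by 0.76 (log2 fold change -0.76, SE 0.15, adjusted p = 5.2e-05). Snhg17, a host of small nucleolar RNAs, had 1340 and 1315 untreated, 154 and 180 in the control with IAA, 953 and 983 with wild-type CTCF and 732 and 694 with mutated CTCF. Its wild-type CTCF level was 2.53 above the control with IAA (adjusted p = 3.5e-27) and its log2 fold change against the untreated level was -0.46 (SE 0.07, adjusted p = 1.8e-06).

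Itga9, an integrin subunit, was the same kind of case on chromosome 9. It had 133 and 134 normalized reads untreated, a mean of 10.9 in the control with IAA, and 62.9 and 37.4 with wild-type CTCF, a pair that differed more than most. Its log2 fold change was -1.44 against the untreated level (SE 0.23, adjusted p = 3.4e-06) and 2.06 against the control with IAA (adjusted p = 4.9e-09). Zcwpw2 (chr9:117876000-118040259, minus strand), annotated as a transcribed unprocessed pseudogene, lies near Itga9 and went the other way. It had 133 and 166 untreated, 1402 and 1446 in the control with IAA, 810 and 784 with wild-type CTCF and 1067 and 1051 with mutated CTCF. Its log2 fold change with wild-type CTCF was 2.41 (SE 0.07, adjusted p = 2.8e-26), and -0.84 against the control with IAA (adjusted p = 1.1e-11).

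The neighbourhood of Zcwpw2 was looked at after its value was seen. Of 11 tested genes that reach within 1000 kb of its start, itself and Itga9 included, 5 were higher and 1 was lower with wild-type CTCF than untreated, against 27.6% and 15.6% of all tested genes. Azi2, whose start lies 0.24 kb from that of Zcwpw2, changed by -0.01 (adjusted p = 0.88), Cmc1 by 0.06 (adjusted p = 0.32) and Golga4 by 0.07 (adjusted p = 0.16). The RNA-binding protein gene Rbms3, 410 kb away, had 23.4 and 20.7 normalized reads untreated, 47.2 and 52.4 with wild-type CTCF and 94.1 and 86.9 in the control with IAA (wild-type CTCF over untreated, log2 fold change 1.14, adjusted p = 1.8e-05). The noncoding transcripts 2610509F24Rik and Platr11, 363 and 366 kb away on the other side, rose by 1.33 and 0.71. Eomes, a T-box factor of mesendoderm and trophoblast, had 46.8 and 63.8 untreated against 80.4 and 82.4 with wild-type CTCF (log2 fold change 0.57, adjusted p = 0.030), and 38.7 and 54.4 with mutated CTCF. Beside Serpinb9, a protease inhibitor with 24.2 and 18.1 normalized reads untreated and 89.2 and 99.5 with wild-type CTCF, its relatives Serpinb9b and Serpinb1b rose by 1.71 and 1.10 on the log2 scale, while Serpinb1c changed by 0.19 (adjusted p = 0.63). These paralogs are alike in sequence, so the division of reads among them is uncertain. Windows around other named genes, those genes included, were counted in the same way. Around Cyp1a1 (100 kb) 6 of 7 tested genes were higher and 0 lower. Mobp (400 kb) gave 5 higher and 0 lower of 11, and Pde4b (700 kb) 4 and 0 of 9. Rgs20 (300 kb) gave 2 and 1 of 6, and Cc2d2a (200 kb) 2 and 1 of 4. Around Rerg (300 kb) only Rerg itself was tested.

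**Figure D2:**
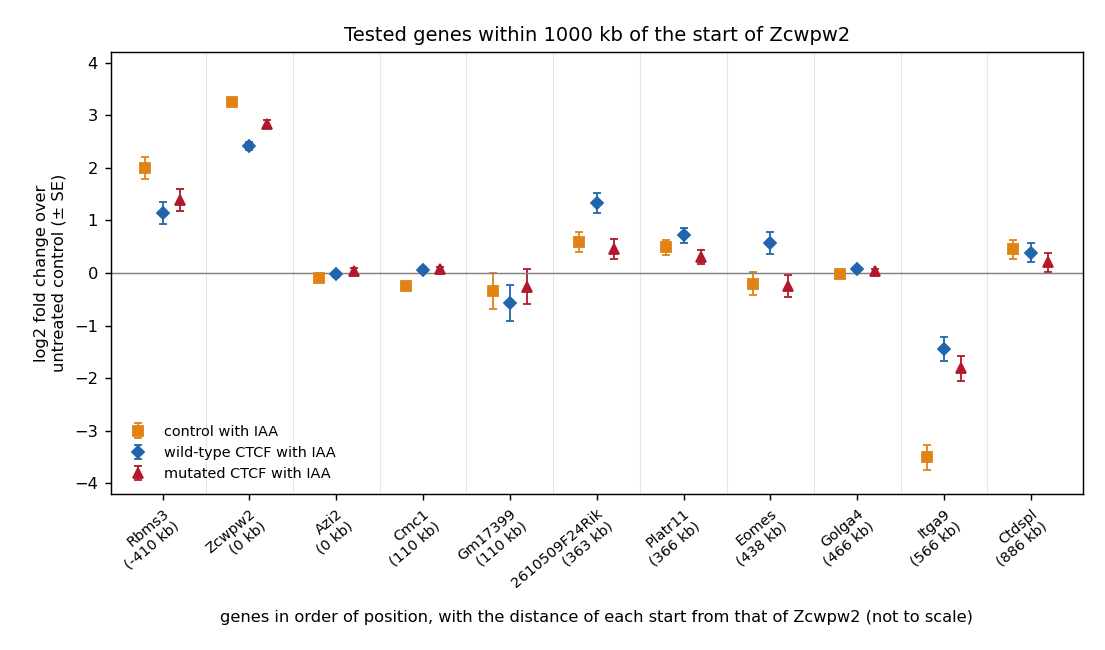
Log2 fold change over the untreated control, with standard error, for the 11 tested genes within 1000 kb of the start of Zcwpw2, in order of position, in the control line with IAA and in the lines supplied with wild-type or mutated CTCF, which share the untreated libraries. Zcwpw2 (2.41 with wild-type CTCF) and Itga9 (-1.44) lie far from 0, while Azi2, Cmc1 and Golga4 lie close to it.

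Genes were also grouped by function, and each group is set against the 27.6% of all tested genes that were higher and the 15.6% that were lower. Counts on another scale are read against the shares on that scale: 23.1% and 21.5% after median-of-ratios rescaling, 20.4% and 24.3% after rescaling to equal totals, and 14.8% and 13.3% with DESeq2. List counts with 1 library left out cannot be read against any of these shares. Fewer of all tested genes were then called in either direction, so a smaller count is not particular to a list. Among AhR targets and partners, 5 of 9 tested genes were higher and 1 was lower, with a median log2 fold change of 0.64 (0.19 in the control with IAA and 0.21 with mutated CTCF). Among the 7 of them with a mean of at least 50 normalized reads the median was 0.17. Nqo1, a quinone reductase, had 449 and 499 normalized reads untreated and 687 and 794 with wild-type CTCF. The receptor genes themselves stayed near the untreated level: Ahr changed by -0.01 (95% interval -0.13 to 0.11) and its partner Arnt by -0.00 (95% interval -0.09 to 0.08). Tiparp, another target, fell by 0.21 on the log2 scale (3589 and 3723 against 3135 and 3200). The NRF2 targets, genes of the defence against oxidants, counted 14 of 20 higher and 0 lower (median 0.29). Their median was 0.19 in the control with IAA and 0.16 with mutated CTCF. Srxn1, which repairs oxidised peroxiredoxins, had 442 and 404 untreated against 616 and 685 (log2 fold change 0.62, adjusted p = 1.1e-08), and Gstp1, a glutathione transferase, had 82.7 and 82.8 against 134 and 139. Hmox1, the haem oxygenase, changed by -0.05 (adjusted p = 0.73).

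Cytosolic ribosomal protein genes were mostly above the untreated level. Of 82 cytosolic ribosomal protein genes 73 were higher and 0 lower, with a median log2 fold change of 0.32 and a range of -0.10 to 0.90. After median-of-ratios rescaling 70 were higher and 0 lower. The summed level of these genes was 142264 and 143074 normalized reads untreated, 168273 and 187156 with wild-type CTCF, 165544 and 160057 in the control with IAA and 161757 and 164855 with mutated CTCF. The first wild-type CTCF library thus lay close to the other libraries with IAA and the second one higher. Rpl23a had 1697 and 1699 untreated against 2601 and 2818 (log2 fold change 0.67, SE 0.05, adjusted p = 1.9e-15), and Rpl10a 903 and 970 against 1352 and 1670. Many ribosomal protein genes have near-identical pseudogene copies, and processed pseudogenes as a class counted 68 of 281 higher and 12 lower (median 0.34), so the division of reads between genes and copies is uncertain. Among hosts of small nucleolar RNAs, which are made with ribosomal components, 15 of 23 were higher and 3 lower (median 0.32; 1 lower without the second untreated or the first wild-type CTCF library), among them Eef2, a translation elongation factor, with 2769 and 2919 against 4091 and 4930. Mitochondrial ribosomal proteins were nearer to all genes, with 22 of 75 higher and 6 lower (12 and 13 after rescaling to equal totals), and oxidative phosphorylation genes counted 33 of 81 higher and 2 lower (median 0.14; 22 and 10 after rescaling to equal totals). DESeq2 gave 6 and 4 for the first and 12 and 4 for the second, at or under its share of higher calls over all genes. Without the second wild-type CTCF library the higher counts were 14 and 20, and without the first untreated library 11 and 21; without the second untreated library 9 mitochondrial ribosomal protein genes were higher. The lower counts were 2 and 1 without the first untreated library, 1 and 1 without the second, and 1 and 0 without the first wild-type CTCF library.

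Glycolysis and hypoxia genes rose in 22 of 32 cases and fell in 3, with a median of 0.31 on the log2 scale. The medians were 0.20 in the control with IAA and -0.08 with mutated CTCF, and 23 of the 32 genes were lower with mutated than with wild-type CTCF (of all tested genes 18.4% were lower and 16.3% higher, 34.7% in either direction, and 3.87% differed by at least 1 on the log2 scale). Without the first untreated library 1 member fell with wild-type CTCF, and without the second untreated or the first wild-type CTCF library 0 fell. Aldoa, a glycolytic aldolase, had 1758 and 1824 normalized reads untreated and 2708 and 3076 with wild-type CTCF (log2 fold change 0.69, SE 0.06, adjusted p = 7.2e-13). A second listed gene with the symbol Aldoa, just upstream, had 70.2 and 78.4 against 47.2 and 57.8 and is 1 of the 3 lower members (log2 fold change -0.50, adjusted p = 0.032). Slc16a3, a lactate exporter, had 51.0 and 63.8 against 121 and 162 (log2 fold change 1.28). Pfkl, a phosphofructokinase, had 181 and 195 untreated, 273 and 317 with wild-type CTCF and 120 and 155 with mutated CTCF, and Bnip3, a mitophagy receptor, had 174 and 195, 271 and 291, and 112 and 125. In these genes the wild-type and the mutated CTCF libraries lay on opposite sides of the untreated pair. In cholesterol and fatty acid synthesis 12 of 33 were higher and 8 lower (10 and 10 after median-of-ratios rescaling, and 5 lower without the second untreated or the first wild-type CTCF library), with Fasn, the fatty acid synthase, at 2113 and 2404 against 3219 and 3997.

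**Figure D3:**
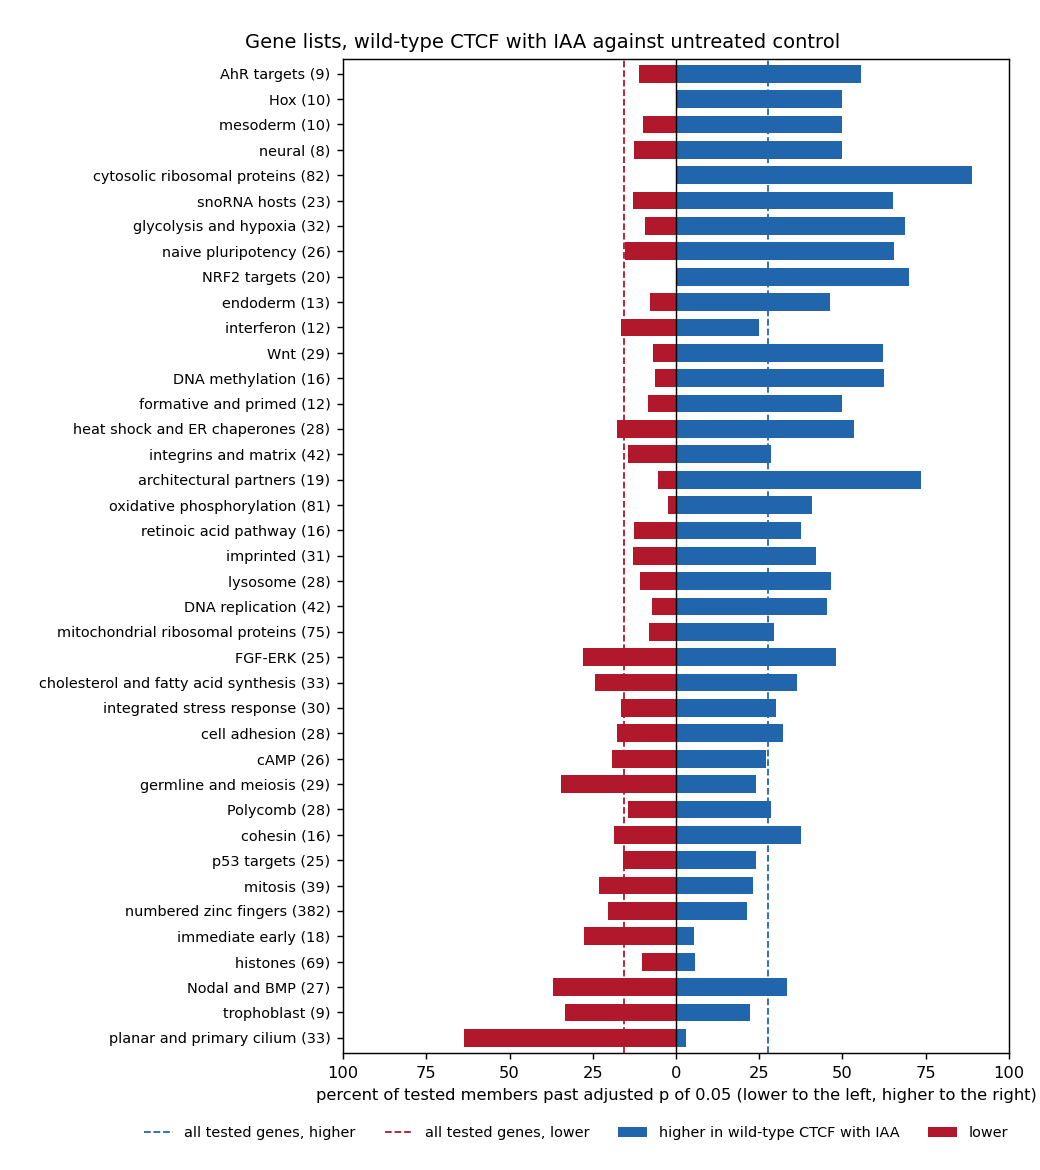
Percent of the tested members of 39 gene lists (number tested in parentheses) that passed an adjusted p of 0.05 lower (left) or higher (right) with wild-type CTCF than untreated, ordered by median log2 fold change. Dashed lines mark the same shares over all tested genes (27.6% higher and 15.6% lower), and the bars of cytosolic ribosomal proteins and of cilium genes reach furthest past them to the right and to the left.

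Of 26 naive pluripotency genes 17 were higher and 4 lower, with a median log2 fold change of 0.29 (0.02 in the control with IAA, 0.12 with mutated CTCF, and 0.20 with wild-type CTCF after correction for GC content and length). Nanog, a core homeodomain factor, had 5201 and 5271 normalized reads untreated, 6424 and 6824 with wild-type CTCF and 5172 and 5219 in the control with IAA (wild-type CTCF over untreated, log2 fold change 0.34, SE 0.04, adjusted p = 4.0e-10). Pou5f1, the Oct4 gene, had 1005 and 1102 against 1360 and 1532 (log2 fold change 0.46). Tfcp2l1, a naive state factor, had 13254 and 13623 untreated and 17837 and 19303 with wild-type CTCF, and its libraries overlapped among the 3 groups with IAA (18050 and 19112 in the control, 18224 and 19389 with mutated CTCF). Esrrb and Klf4 were near the untreated level, with log2 fold changes of 0.02 (95% interval -0.04 to 0.08) and 0.07 (95% interval -0.03 to 0.17). Utf1, a chromatin-bound pluripotency factor under the level minimum for naming and named after its values were seen, was lower, with 52.7 and 43.1 untreated, 12.2 and 18.2 with wild-type CTCF, 7.15 and 12.1 in the control with IAA and 17.8 and 12.9 with mutated CTCF (log2 fold change -1.61, adjusted p = 0.00012).

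Signalling pathways of these cells were mixed. Of 29 Wnt pathway genes, measured under a GSK3 inhibitor in every group, 18 were higher and 2 lower (median 0.22; 17 and 5 after median-of-ratios rescaling). Dkk1, a secreted Wnt inhibitor named after its values were seen, had 3.34 and 3.45 normalized reads untreated, 43.7 and 52.4 with wild-type CTCF, 70.3 and 57.2 in the control with IAA and 28.2 and 42.5 with mutated CTCF. Its change over the untreated level was 3.47 on the log2 scale (SE 0.28, adjusted p = 2.9e-13). Notum, an enzyme that inactivates Wnt ligands, had 120 in each untreated library and 232 and 234 with wild-type CTCF. Wls and Porcn act in Wnt secretion. Wls had 145 and 153 untreated, 306 and 356 with wild-type CTCF and 60.6 and 68.2 with mutated CTCF, and Porcn had 41.8 and 40.5, 62.9 and 80.2, and 12.5 and 14.8. In Wls and Porcn, but not in Dkk1, the mutated form lay below the untreated pair. The Wnt median was 0.25 in the control with IAA and 0.16 with mutated CTCF.

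Among FGF and ERK pathway genes, under the MEK inhibitor, 12 of 25 were higher and 7 lower (8 and 8 after median-of-ratios rescaling, 9 and 4 without the first untreated library). Dusp6, the phosphatase that ERK induces, had 125 and 136 normalized reads untreated and 63.8 and 55.6 with wild-type CTCF (log2 fold change -1.12, SE 0.17, adjusted p = 1.5e-06), and 59.6 and 60.5 in the control with IAA. Etv1, an ETS factor, rose by 0.67 on the log2 scale. Of 18 immediate early genes 1 was higher and 5 were lower (2 lower without the second untreated or the first wild-type CTCF library, 3 without the first untreated one), among them Atf3, a stress-induced factor, with 153 and 142 against 47.2 and 79.2. Nodal and BMP genes counted 9 of 27 higher and 10 lower (8 and 14 with median-of-ratios factors, 7 and 15 with equal totals), with Lefty1, a Nodal inhibitor, at 40.1 and 43.1 untreated against 62.9 and 78.1 and Inhbb, an activin subunit, at 109 and 112 against 46.3 and 47.1. In the cyclic AMP pathway, Pde4b included, 7 of 26 were higher and 5 lower, which is near the shares over all genes (4 and 2 without the first untreated library, 5 and 1 without the second, 6 and 3 without the first wild-type CTCF library). Retinoic acid genes counted 6 of 16 higher and 2 lower, but 3 and 3 after rescaling to equal totals, 2 and 2 without the first untreated or the second wild-type CTCF library, and 3 and 1 without the second untreated one (6 and 1 without the first wild-type CTCF library). Crabp1, which binds retinoic acid in the cytosol, had 69.4 and 81.0 against 39.3 and 33.2.

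In the list of the primary cilium, a sensory projection that passes Hedgehog signals, members were lower more often than higher. Of 33 tested genes, 4 Hedgehog genes included, 21 were lower and 1 was higher, with a median log2 fold change of -0.31 (-0.21 in the control with IAA and -0.24 with mutated CTCF). Fewer members were called lower when 1 library was left out, and fewer of all tested genes were then called lower too. The 1 higher call did not always hold. The median over all 4 left-out libraries ran from -0.34 to -0.25. Among transition zone genes, Tmem67 had 384 and 408 normalized reads untreated against 272 and 255 (log2 fold change -0.59, SE 0.09, adjusted p = 1.1e-06) and Tctn3 had 141 and 151 against 111 and 95.2. Wdr35, part of the transport complex of the cilium, had 1052 and 1071 untreated, 709 and 787 with wild-type CTCF, 535 and 527 in the control with IAA and 573 and 602 with mutated CTCF. Of the Hedgehog genes, Gli3 and Smo, named after their values were seen, were lower (log2 fold changes of -0.19, adjusted p = 0.00016, and -0.31, adjusted p = 0.011). Gli2 and Ptch1 were near the untreated level, with log2 fold changes of -0.04 (95% interval -0.10 to 0.02) and 0.01 (95% interval -0.07 to 0.09). Kif3a, a motor subunit named after its value was seen, was the one member higher (170 and 168 against 198 and 228).

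**Figure D4:**
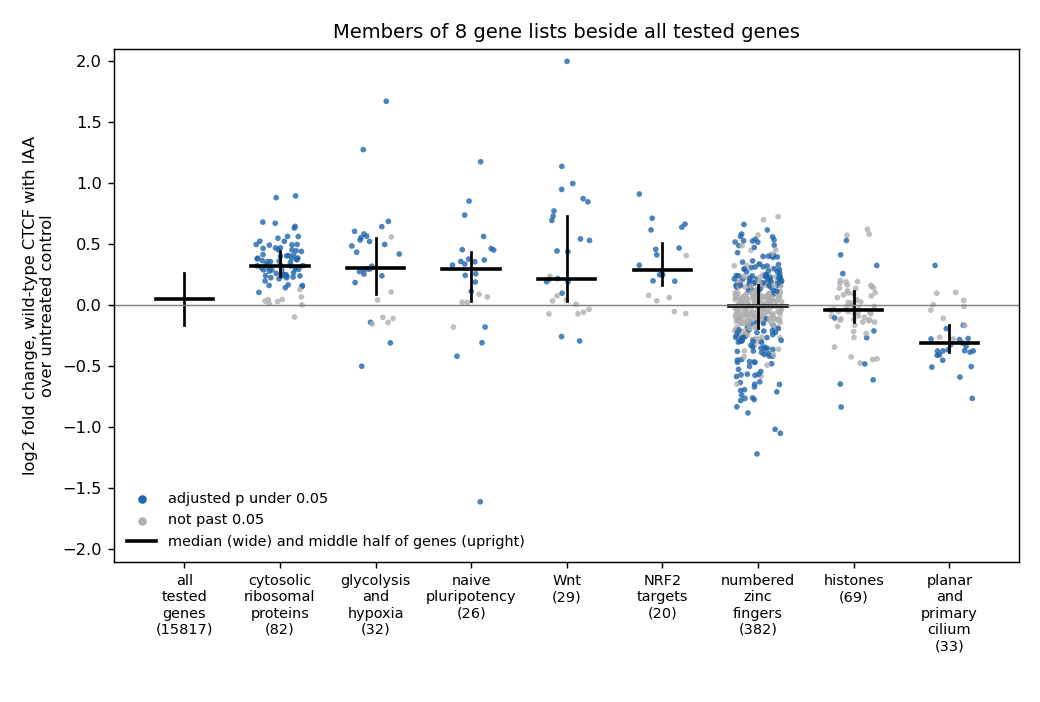
Log2 fold change of wild-type CTCF with IAA over the untreated control (y axis) for each tested member of 8 gene lists, 1 point a gene, with the median and the middle 50% of genes, beside the same for all 15817 tested genes; 1 member, Dkk1 at 3.47, is drawn at the upper edge. Nearly all cytosolic ribosomal protein genes lie above 0 (median 0.32) and most cilium genes below it (median -0.31), while numbered zinc fingers lie on both sides of 0 (median -0.01 on the authors' scale).

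Genes of the cohesin machinery, which works with CTCF in chromatin folding, had no direction that held over the scales. Of 16 cohesin genes 6 were higher and 3 lower with a median log2 fold change of 0.04. Median-of-ratios rescaling gave 4 and 4 (median -0.02), equal totals 4 and 6 (median -0.05), and the correction for GC content and length 9 and 1 (median 0.09). Rad21, the cohesin kleisin, changed by 0.03 (95% interval -0.04 to 0.10) and Wapl, the cohesin release factor, by 0.02 (95% interval -0.04 to 0.09). Stag1 was the largest exception, with 28799 and 29972 normalized reads untreated, 39401 and 39102 with wild-type CTCF, 45808 and 46632 in the control with IAA and 37278 and 36818 with mutated CTCF. It rose by 0.42 on the log2 scale (SE 0.02, adjusted p = 4.4e-17). Among other architectural factors 14 of 19 were higher and 1 lower (median 0.16), and 8 were higher and 3 lower after rescaling to equal totals, and 9 were higher without the first untreated or the second wild-type CTCF library. Bend3, a repressor of pericentromeric chromatin, had 832 and 754 against 1280 and 1346, and Maz, a zinc finger factor found at CTCF sites, 320 and 291 against 420 and 464. Of 16 DNA methylation genes 10 were higher and 1 lower (0 lower without the second untreated library, 2 without the second wild-type CTCF one), including Dnmt3b at 463 and 492 against 643 and 723. Polycomb genes counted 8 of 28 higher and 4 lower on the authors' scale and 6 and 9 after median-of-ratios rescaling, so no direction is given for them; single libraries moved them too, from 5 and 6 without the first untreated one to 9 and 1 without the second.

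Numbered zinc finger genes (Zfp, Zscan and Zkscan), many of which sit in clusters and silence transposons, counted 81 of 382 higher and 78 lower with a median of -0.01, but median-of-ratios factors gave 63 and 104, and scaling to equal totals gave 55 and 123, so no direction is given for them. Without the second untreated library 68 were higher and 46 lower. Zfp423, a developmental regulator, had 398 and 342 normalized reads untreated against 190 and 167, and Zfp773 had 1342 and 1322 against 766 and 784. Of 69 histone genes 4 were higher and 7 lower, but 16 and 3 without the first wild-type CTCF library and 0 and 21 without the second (3 and 3 without the first untreated library, 2 and 3 without the second). Their summed levels with wild-type CTCF, 26033 and 31179, lay on both sides of the untreated 29047 and 29338, so that the replicates disagreed in direction. H4c9 had 691 and 721 untreated, 412 and 494 with wild-type CTCF, 729 and 770 in the control with IAA and 461 and 462 with mutated CTCF. Histone genes share long stretches of sequence, which leaves their division of reads uncertain.

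Medians of p53 targets and mitosis genes were close to 0. Of 25 p53 targets 6 were higher and 4 lower (4 and 6 after median-of-ratios rescaling, 3 and 3 without the first untreated library, 5 and 2 without the second), with a median log2 fold change of 0.03, while the median was -0.36 both in the control with IAA and with mutated CTCF. Cdkn1a, the p21 cell cycle inhibitor, had 1331 and 1305 normalized reads untreated, 1375 and 1350 with wild-type CTCF, 793 and 821 in the control with IAA and 1157 and 1161 with mutated CTCF. Of 39 mitosis genes 9 were higher and 9 lower (3 and 14 after median-of-ratios rescaling, 5 and 6 without the first untreated library, 4 and 8 without the second wild-type CTCF one). Of 42 DNA replication genes 19 were higher and 3 lower (11 and 10 after rescaling to equal totals, 10 higher without the first untreated or the second wild-type CTCF library, and 1 lower without the second untreated or the first wild-type CTCF library). The integrated stress response counted 9 of 30 higher and 5 lower (5 and 5 without the first untreated library, 8 and 3 without the second). Heat shock and endoplasmic reticulum chaperones counted 15 of 28 higher and 5 lower (3 lower with the first or the second untreated library left out), with Hsp90ab1, a cytosolic chaperone, at 11538 and 11170 untreated, 15752 and 17598 with wild-type CTCF, 15500 and 15588 in the control with IAA and 15665 and 16491 with mutated CTCF.

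Genes of other lineages were mixed, beside the marker sums given above. Of 13 endoderm genes 6 were higher and 1 lower (0 lower without the second untreated or the first wild-type CTCF library), of 10 mesoderm genes 5 and 1 (3 and 0 without the first untreated or the second wild-type CTCF library, 4 and 0 without the second untreated one), of 8 neural genes 4 and 1, and of 9 trophoblast genes 2 and 3 (1 and 2 without the first untreated library, 1 and 3 without the first wild-type CTCF library). Kdr, the VEGF receptor of mesoderm and endothelium, had 100 and 87.9 normalized reads untreated, 168 and 163 with wild-type CTCF and 93.0 and 74.1 with mutated CTCF. Ebf1, a transcription factor of mesenchyme and B cells, had 548 and 555 untreated, 1206 and 1193 with wild-type CTCF, 655 and 662 in the control with IAA and 240 and 248 with mutated CTCF, so that both lines with supplied CTCF left the untreated level in opposite directions. Of 10 Hox genes 5 were higher and 0 lower (median 0.53), but 2 were higher without the second untreated or the second wild-type CTCF library, 3 without the first untreated one and 1 with DESeq2, with Hoxc12 at 68.5 and 53.4 against 114 and 128. The Hox median was 0.65 in the control with IAA and 0.31 with mutated CTCF. Of 29 germline and meiosis genes 7 were higher and 10 lower (4 and 9 with DESeq2).

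Imprinted genes counted 13 of 31 higher and 4 lower (8 and 2 without the first untreated library, 2 lower without the second untreated or the first wild-type CTCF library), with Meg3 at 1265 and 1222 normalized reads untreated, 1603 and 1609 with wild-type CTCF and 986 and 1001 in the control with IAA. Integrin and matrix genes counted 12 of 42 higher and 6 lower (12 and 10 after median-of-ratios rescaling). Lama5, a laminin chain of basement membranes, had 694 and 631 against 1116 and 1239, and Col4a1, a basement membrane collagen, had 72.7 and 55.2 untreated, 107 and 122 with wild-type CTCF and 29.3 and 28.7 with mutated CTCF. Cell adhesion genes counted 9 of 28 higher and 5 lower (6 and 8 after rescaling to equal totals), and Gja1, the connexin 43 gene, and Ocln, a tight junction protein gene, fell by 0.93 and 0.90 on the log2 scale. Lysosome genes counted 13 of 28 higher and 3 lower (10 and 6 after median-of-ratios rescaling, 7 higher without the first untreated and 8 without the second wild-type CTCF library), and interferon genes 3 of 12 and 2 (1 and 0 without the first untreated library, 1 and 1 without the second, 2 and 1 without the first wild-type CTCF library, 1 and 2 without the second). Of 12 formative and primed genes 6 were higher and 1 lower (0 lower without the second untreated library), and of 3 fibroblast genes 1 was higher (2 without the first wild-type CTCF library). The 2-cell list had 0 tested genes.

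With DESeq2 on recovered reads, counts moved by over 1.5 times in further lists. It called 12 Wnt genes higher and 4 lower, 8 and 2 architectural genes, 10 and 4 DNA replication genes, 7 and 3 imprinted genes and 7 and 4 lysosome genes. Higher and lower counts were 2 and 2 for retinoic acid, 4 and 3 for the integrated stress response, 4 and 11 for Nodal and BMP, 6 and 9 for cholesterol and fatty acid synthesis, 3 and 12 for mitosis, and 41 and 57 for zinc finger genes. They were 3 and 1 for formative and primed genes, 4 and 4 for cyclic AMP and 4 and 6 for Polycomb. Histone genes gave 1 and 4, immediate early genes 1 and 3, and glycolysis and hypoxia genes 19 and 1. Mesoderm genes gave 3 and 0, trophoblast genes 1 and 2, and interferon genes 1 and 0. The correction for GC content and length gave 2 and 20 for histones and 3 and 2 for mesoderm genes. With that correction the median log2 fold change of formative and primed genes was 0.07, against 0.20 without it.

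By gene class, protein-coding genes counted 3943 higher and 2011 lower of 13129 tested. Long noncoding RNAs from bidirectional promoters were lower more often by count, with 23 of 82 lower and 4 higher and a median log2 fold change of -0.36 (-0.15 in the control with IAA and -0.13 with mutated CTCF). Antisense transcripts counted 133 lower and 81 higher of 649, and for both classes the open strand setting of the counting applies. Medians by chromosome lay between -0.04 on chromosome 6, where 189 of 780 genes were lower and 152 higher, and 0.11 on chromosome 11, leaving out chromosome Y with 13 genes; after median-of-ratios rescaling these medians were -0.093 and 0.053. Genes that changed by a log2 fold change of 1 or more were weakly transcribed: their median untreated level was 16.6 normalized reads for raised and 37.3 for lowered genes, against 246 for all tested genes. With wild-type CTCF these medians were 42.4 for raised, 15.2 for lowered and 256 for all tested genes. Raised genes of that size had another such gene within 200 kb in 18.2% of cases, against 8.56% of all tested genes, and lowered genes had another lowered one in 11.7% of cases, against 7.74%; these shares were not tested.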

How the data were processed

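TT-seq libraries of 4 groups with 2 replicates each were read from 1 deposited table of normalized counts for 16940 genes. Per the submitters' processing notes, Trim Galore, STAR, featureCounts and DESeq2 were used with mm10; their versions, roles and settings are not given in the sources used here. The deposited signal values were whole reads divided by 1 factor per library (100% of values whole within 0.01 reads), so recovered reads served edgeR (4.0.16) and DESeq2 (1.42.0) as alternatives, without the mutated CTCF group, 1 of whose columns could not be verified as reads. Columns of samples from other series numbered 0. The labels name no molecular identifiers, so counting error is the least error of a value.

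The test was limma (3.58.1, R 4.3.3) on log2(value + 1), which understates changes of low genes. It had 1 coefficient per group over all 8 libraries (4 residual degrees of freedom), with a mean-variance trend, for 15817 genes whose mean was 10 or more. Benjamini-Hochberg adjustment ran over all tested genes at 0.05. The procedure was run on simulated data, and no outcome of that run is used here. Of the gene IDs 16917 matched GENCODE M21 on GRCm38, which gave positions and classes.

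The members, the 41 gene lists and the rules were chosen with earlier results of these data known, so lists were described by counts and medians without a test. Named were the 12 highest and 12 lowest changes past the threshold whose mean over the 4 libraries was 50 or more and whose groups did not overlap, and from each list up to 4 members past the threshold with the largest change. Members near the untreated level, markers and genes said to be named after their values were seen are exceptions. Clustered protocadherin genes and 1 other gene ID were not analysed here, and the targeted gene's own level is not reported. Alternatives were other pseudocounts, filters, scales and corrections, blocking on replicate number, and dropping 1 library at a time.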

Additional observations from a re-analysis of the deposited data

Results flagged for a closer look

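For 22 of the 165 named genes the lines with mutated and wild-type CTCF, both with 12 h of IAA, differed by at least 1 on the log2 scale at an adjusted p under 0.05 by limma, where 3.87% of all tested genes did. The named genes were chosen on the same wild-type CTCF libraries, which favours lower mutated values among raised genes and higher ones among lowered genes, so the directions are given as values only. Among genes above the untreated level with wild-type CTCF, the mutated line was lower by log2 fold changes of -3.27 in Cyp1a1, -1.98 in Ahrr, -1.94 in Pde4b, -1.16 in Aox3, -1.37 in Mobp and -1.33 in Phactr1. In these 6 genes the mutated line was still above the untreated level, from 0.68 in Ahrr and Phactr1 to 1.84 in Pde4b.

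In further genes above the untreated level with wild-type CTCF the mutated value lay below it. Ebf1 differed by -2.29 (1.12 with wild-type and -1.17 with mutated CTCF, each against untreated), Wls by -2.34 (1.14 and -1.20), Porcn by -2.30 (0.77 and -1.53) and Col4a1 by -1.94 (0.84 and -1.10). The retinoic acid receptor gene Rarb differed by -1.29 (0.55 and -0.74), the Wnt transcription factor gene Lef1 by -1.28 (0.45 and -0.84) and Bnip3 by -1.24 (0.61 and -0.64). Pfkl differed by -1.10 (0.65 and -0.45) and the collagen gene Col11a1 by -1.07 (0.81 and -0.26).

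Among genes below the untreated level with wild-type CTCF the mutated line was higher by 1.65 in Olah, 1.48 in Tnfaip8l3, 1.42 in Cdh23, 1.30 in Cacng6, 1.15 in Gm7967, 1.14 in Gm30097 and 1.04 in Rerg. The mutated line's own change against untreated ran from -0.71 in Rerg to -0.11 in Tnfaip8l3.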

How the results depend on the processing

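The 24 genes named by size kept direction and call under the alternatives run, apart from 1 gene without a value at a minimum mean of 50, and of the other 141 named genes none turned direction while 35 lost the call in 1 or more settings, most often with DESeq2 (29). The count of genes past the threshold for wild-type CTCF against untreated (6827) was 4457 with DESeq2 (2348 higher) and 7513 with edgeR; the lower count (2461) was 3697 with edgeR and 3851 after rescaling to equal totals. Without the mean-variance trend, the count for wild-type CTCF against untreated was 4877 (3092 higher and 1785 lower). In that setting counts were 3945 for control with IAA and 3868 for mutated CTCF against untreated. They were 2378 for wild-type CTCF against control with IAA and 3263 for mutated against wild-type CTCF. The count with a log2 fold change of at least 1 (610) was 241 with a pseudocount of 10, 194 with a minimum mean of 50 and 404 with DESeq2.

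List medians moved as follows. The AhR median was 0.44 with a pseudocount of 10 and 0.17 with a minimum mean of 50, where fewer genes were tested, and that of NRF2 targets 0.25 with that minimum. After median-of-ratios rescaling, with or without the replicate block (the rescaled block was chosen after seeing the data), medians were 0.24 for NRF2 targets, 0.17 for Wnt, 0.26 for glycolysis, and -0.36 for cilium genes; without the block they were -0.093 for chromosome 6 and 0.053 for chromosome 11. After rescaling to equal totals they were 0.21, 0.14, 0.23 and -0.39 for these 4 lists. With edgeR and DESeq2 they were 0.24 and 0.24, 0.16 and 0.16, 0.25 and 0.25, and -0.37 and -0.36. The naive pluripotency median was 0.20 after correction for GC content and length.

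Leaving out each library in turn gave 4995 to 6196 genes past the threshold, 3131 to 4286 higher, 1467 to 2176 lower and 562 to 703 with a log2 fold change of at least 1, with 1 change of direction. Medians then ran from 0.54 to 0.74 for AhR, 0.28 to 0.33 for NRF2, 0.18 to 0.29 for Wnt, 0.31 to 0.35 for glycolysis, 0.25 to 0.41 for ribosomal proteins, 0.23 to 0.35 for naive pluripotency and -0.34 to -0.25 for cilium genes, of which 11 to 18 were lower. The lone library of a group was assumed to vary like the others. Deviations of same-numbered libraries correlated at -0.022 to 0.028, so the numbers do not pair the libraries; a replicate block gave 7237 genes past the threshold. The causes of these shifts were not tested, apart from the smaller number of genes or libraries. The edgeR and DESeq2 alternatives were not run for mutated CTCF. With 2 libraries a group and weakly transcribed genes among the largest changes, precision is lowest there.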

Other observations

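Retinoic acid receptor and phosphodiesterase genes add values not described above. Rarb had 283 and 272 normalized reads untreated, 605 and 597 in the control with IAA, 403 and 408 with wild-type CTCF and 171 and 160 with mutated CTCF, so wild-type CTCF lay between the untreated level and the control with IAA (log2 fold change over untreated 0.55, adjusted p = 2.4e-06 by limma). Rarb overlaps Top2b on the opposite strand, so their reads may be shared. Pde4d, a relative of Pde4b, had 5395 and 5567 untreated against 8077 and 8131 with wild-type CTCF (log2 fold change 0.56), and Pde3b had 782 and 792 against 513 and 514 (log2 fold change -0.62), so members of the same enzyme class changed in both directions. Stra8, a meiosis gene, had 365 and 397 untreated, 903 and 908 in the control with IAA and 427 and 410 with wild-type CTCF, a log2 fold change of 0.14 over untreated (95% interval -0.02 to 0.29, adjusted p = 0.17); with mutated CTCF it had 235 and 220.

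Gaa, the lysosomal acid glucosidase, had 57.7 and 58.6 normalized reads untreated, 27.4 and 24.2 in the control with IAA, 82.2 and 98.4 with wild-type CTCF and 94.0 and 79.1 with mutated CTCF. Both supplied forms thus lay above the untreated pair and the control with IAA below it. Sqle and Pmvk, enzymes of cholesterol synthesis, took a like order with wild-type CTCF: Sqle had 2973 and 3054 untreated, 2616 and 2565 in the control with IAA and 3931 and 4220 with wild-type CTCF, and Pmvk had 242 and 248, 193 and 158, and 295 and 319. The orders of these genes were seen in the values and were not tested as a group.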
